A study of Mus musculus with 8 samples.

Results

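The circadian clock genes described here are Clock, Npas2, Per1, Per2, Per3, Cry1, Cry2, Nr1d1, Nr1d2 and Dbp. They were matched by gene symbol to a list of core clock genes, and all 10 were found among the 24584 genes of the count table and all 10 passed the filter on low counts. Expression was measured by RNA-seq of whole lung. The LPS group (n = 4) received lipopolysaccharide (LPS), the bacterial cell wall component used to model septic acute lung injury, from Escherichia coli O111:B4 at 5 mg/kg intraperitoneally. The LPS + Tan group (n = 4) received the same LPS 30 min after tangeretin (Tan), a citrus flavonoid, at 50 mg/kg intraperitoneally. The mice of both groups were male ICR animals of 6 to 8 weeks, labelled as wild type and kept under 12 h of light and 12 h of dark, and lungs were taken 12 h after LPS. No mice without LPS and none with tangeretin alone were analysed here, so that no value below measures the effect of LPS. The clock time of injection and collection is not given in the sources used here, and a difference in clock time between animals cannot be told apart from a difference in level. The labels give each sample as a separate sample of its group and say nothing more of the animals, so that p-values measure the spread between these samples.

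The mammalian clock is a feedback loop of transcription. CLOCK, or its paralog NPAS2, pairs with BMAL1 (the product of Arntl) and activates the Per and Cry genes through E-box elements, and PER and CRY proteins return to the nucleus and repress that activator. A further loop runs through the nuclear receptors REV-ERB alpha and beta (Nr1d1 and Nr1d2), which repress Arntl, Npas2 and Cry1, while DBP and its relatives TEF and HLF act on D-box elements as output factors. In lung the clock is known to run in epithelial cells and in macrophages and to gate inflammatory responses, and Per1 is also a known target of the glucocorticoid receptor.

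Stretches of 4 promoters are shown because Per1, Cry1, Per3 and Cry2 were the members in which the letters of a searched motif were found. Windows of 250 bases before to 50 bases after each start were read from RefSeq on GRCm38.p6 for 9 members, in 12 windows. The motifs searched on both strands were the E-box CACGTG, the D-box TTANGTAA, the nuclear receptor element TNGGTCA, the cyclic AMP element TGACGTCA and the glucocorticoid receptor core ACANNNTGT, of which 7.15%, 2.32%, 11.0%, 1.79% and 6.85% of all 32851 windows held a match. The 100-base stretches lie before the start, run 5′ to 3′ on the strand of the gene, and carry the match in capitals. The first is Per1 at chr11:69098736-69098835 (plus strand), inside the annotated span of the gene and before one of its later starts, with an E-box 166 bases upstream. The next is Cry1 at chr10:85185062-85185161 (minus strand), with an E-box 60 bases upstream. Per3 at chr4:151044794-151044893 (minus strand) holds a pair of D-boxes 205 and 158 bases upstream, and its window also held a nuclear receptor element 118 bases upstream, past the end of the stretch shown. Cry2 at chr2:92434150-92434249 (minus strand) holds a match to the nuclear receptor motif on the reverse strand 133 bases upstream. That motif leaves a letter free (N), and binding at any of these matches was not tested.
Per1: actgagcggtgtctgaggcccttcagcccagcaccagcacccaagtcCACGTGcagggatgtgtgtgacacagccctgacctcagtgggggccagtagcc
Cry1: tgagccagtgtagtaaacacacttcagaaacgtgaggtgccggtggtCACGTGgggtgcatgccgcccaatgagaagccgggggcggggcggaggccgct
Per3: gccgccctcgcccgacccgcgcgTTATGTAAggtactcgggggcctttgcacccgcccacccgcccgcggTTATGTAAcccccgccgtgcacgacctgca
Cry2: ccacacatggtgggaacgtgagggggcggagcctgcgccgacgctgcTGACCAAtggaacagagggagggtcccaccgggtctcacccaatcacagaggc
The windows of Clock, Npas2, Nr1d1, Nr1d2 and Dbp held none of these letters, which says nothing about the factors that bind there. Per2 had no window.

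Depth was even, with total counts between 38895654 and 39931970, and the lung label held, since Sftpc of alveolar type 2 cells lay between 3359 and 7135 CPM (read counts scaled to library size) and Scgb1a1 of club cells between 11492 and 17992 CPM, while Alb of liver lay at no more than 0.661 CPM. The median correlation of a library with the other 7 on log2 CPM was between 0.980 and 0.985. The summed CPM of 5 neutrophil markers was 3318 to 4717 in the LPS group and 3042 to 4555 in the LPS + Tan group, with the lowest sum in LPS + Tan 2. In LPS + Tan 2, S100a8, S100a9 and Retnlg were the lowest of 8 and Cxcr2 (174 CPM) the second lowest, while Ly6g (22.4 CPM) was the second highest. The sum of 5 cardiac muscle markers was also lowest in LPS + Tan 2, at 123 CPM, beside 130 to 174 CPM with LPS and up to 254 CPM with LPS + Tan. Among these markers Nppa and Tnnt2 were lowest in LPS + Tan 2, while Myh6, Myl7 and Actc1 were lowest in other samples. In bulk tissue, fewer cells of a type and less RNA per cell cannot be told apart. Levels below are CPM scaled by TMM factors, and differences are log2 fold changes of LPS + Tan against LPS from the edgeR quasi-likelihood test over 15706 genes, with standard error (SE), 95% interval and an adjusted p after Benjamini-Hochberg correction.

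No clock gene passed the test for a difference between the groups. None of the 10 members passed an unadjusted p of 0.05 (0 of 10), against 5.12% of all tested genes in either direction, 2.25% lower and 2.87% higher in LPS + Tan. None met the thresholds for differentially expressed genes, an unadjusted p of 0.05 with an absolute log2 fold change of 1 (0 of 10, against 0.649% of all tested genes), and none had an adjusted p below 0.05 (0 of 10, against 0% of all tested genes). Over the whole table edgeR gave 804 genes with an unadjusted p below 0.05 and 0 with an adjusted one below it, the smallest being an adjusted p of 0.497. In none of the members did the CPM of the groups fail to overlap (0 of 10, against 2.73% of all tested genes). The log2 fold change was above 0 in 4 members and below 0 in 6, with a median of -0.061, where the median of all tested genes was 0.0070. Every member's 95% interval held 0 and lay within a log2 fold change of 1 in either direction.

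**Figure D1:**
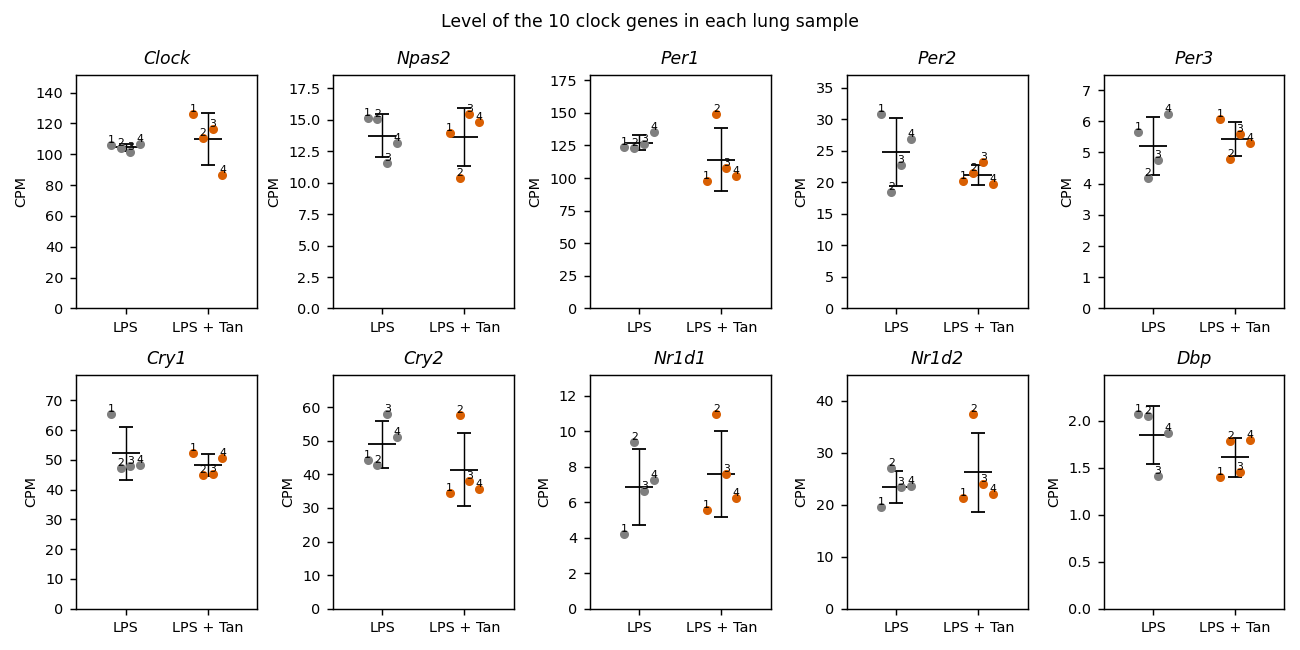
CPM (y axis, from 0) of each clock gene in the 4 LPS and 4 LPS + Tan samples, with the replicate number at each point and the mean ± SD as bars. The groups overlap in all 10 genes, and LPS + Tan 2 is the highest sample for Per1, Nr1d1 and Nr1d2.

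Among the activators, Clock, which encodes a DNA-binding subunit of the activator, stood at 106, 104, 101 and 106 CPM in LPS 1 to 4 and at 126, 111, 116 and 86.8 CPM in LPS + Tan 1 to 4. The LPS samples were close together and the LPS + Tan samples lay on both sides of them. The means were 104 ± 2.32 and 110 ± 16.8 CPM (SD, n = 4 each), with a log2 fold change of 0.08 (SE 0.11, interval -0.17 to 0.32, adjusted p = 0.978 by edgeR). Npas2, the paralog that can replace Clock, was at 15.2, 15.1, 11.6 and 13.2 CPM with LPS and at 13.9, 10.4, 15.5 and 14.8 CPM with LPS + Tan. LPS + Tan 2 was the lowest of the 8 and LPS + Tan 3 the highest, so that the LPS + Tan samples spanned the whole range. The log2 fold change of Npas2 was -0.0094 (SE 0.15, interval -0.34 to 0.32, adjusted p = 0.998 by edgeR).

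Of the PER repressors, Per1, an early responder to glucocorticoid and cyclic AMP signals, was at 123, 123, 126 and 135 CPM with LPS and at 97.6, 149, 108 and 101 CPM with LPS + Tan. LPS + Tan 1, 3 and 4 lay below every LPS sample and LPS + Tan 2 lay above every one. The means of 127 ± 5.60 and 114 ± 24.0 CPM (SD, n = 4 each) gave a log2 fold change of -0.16 (SE 0.13, interval -0.45 to 0.14, adjusted p = 0.947 by edgeR). Per2, the core repressor that binds CRY proteins, was at 30.9, 18.5, 22.8 and 26.9 CPM with LPS and at 20.2, 21.5, 23.2 and 19.7 CPM with LPS + Tan. The LPS samples held both the highest and the lowest value, and the LPS + Tan samples lay between them. Its log2 fold change was -0.23 (SE 0.15, interval -0.55 to 0.10, adjusted p = 0.930 by edgeR), on means of 24.8 ± 5.34 and 21.2 ± 1.57 CPM (SD, n = 4 each). Per3, the third paralog, whose promoter holds the pair of D-boxes shown above, was at 5.65, 4.18, 4.76 and 6.25 CPM with LPS and at 6.08, 4.78, 5.59 and 5.30 CPM with LPS + Tan. The LPS + Tan samples again lay inside the range of the LPS samples, and the log2 fold change was 0.06 (SE 0.16, interval -0.30 to 0.42, adjusted p = 0.987 by edgeR).

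Both CRY repressors, the proteins that hold CLOCK and BMAL1 in check, had negative log2 fold changes within their error. Cry1 was at 65.5, 47.3, 47.9 and 48.3 CPM with LPS and at 52.3, 45.1, 45.1 and 50.8 CPM with LPS + Tan. LPS 1 stood well above the other 7 samples, which lay close together. The means were 52.3 ± 8.84 and 48.3 ± 3.78 CPM (SD, n = 4 each), with a log2 fold change of -0.11 (SE 0.12, interval -0.37 to 0.15, adjusted p = 0.966 by edgeR). Cry2 was at 44.4, 42.7, 58.0 and 51.0 CPM with LPS and at 34.3, 57.6, 37.9 and 35.6 CPM with LPS + Tan. As in Per1, LPS + Tan 1, 3 and 4 lay below every LPS sample, while LPS + Tan 2 was the second highest of the 8. The means of 49.0 ± 6.98 and 41.4 ± 10.9 CPM (SD, n = 4 each) gave the most negative log2 fold change of the members, -0.24 (SE 0.17, interval -0.63 to 0.14, adjusted p = 0.933 by edgeR).

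The REV-ERB repressors had the widest ratios between the highest and the lowest sample among the members. Nr1d1 was at 4.19, 9.42, 6.66 and 7.23 CPM with LPS and at 5.58, 11.0, 7.58 and 6.24 CPM with LPS + Tan. LPS 1 was the lowest and LPS + Tan 2 the highest, with a ratio of 2.62 between them, and the SD of log2 CPM over the 8 samples was 0.43, above that of 80.2% of tested genes. This percentile was not matched for expression level. Nr1d2 was at 19.6, 27.0, 23.5 and 23.6 CPM with LPS and at 21.3, 37.5, 23.9 and 22.1 CPM with LPS + Tan, with the same samples at both ends and a ratio of 1.91 between them. The log2 fold changes were 0.14 for Nr1d1 (SE 0.27, interval -0.46 to 0.74, adjusted p = 0.982 by edgeR) and 0.16 for Nr1d2 (SE 0.18, interval -0.24 to 0.56, adjusted p = 0.967 by edgeR).

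The output factor Dbp, a direct E-box target that usually swings widely over the day, was at 2.07, 2.05, 1.41 and 1.87 CPM with LPS and at 1.40, 1.78, 1.46 and 1.79 CPM with LPS + Tan. The 3 highest values were LPS samples, but LPS 3 lay among the lowest and the groups overlapped. The log2 fold change was -0.20 (SE 0.21, interval -0.68 to 0.27, adjusted p = 0.966 by edgeR). Dbp had a mean of 68.0 counts per sample, so that counting alone gives a coefficient of variation of 12.1%, beside 16.6% and 12.9% between the samples of the LPS and the LPS + Tan group.

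**Figure D2:**
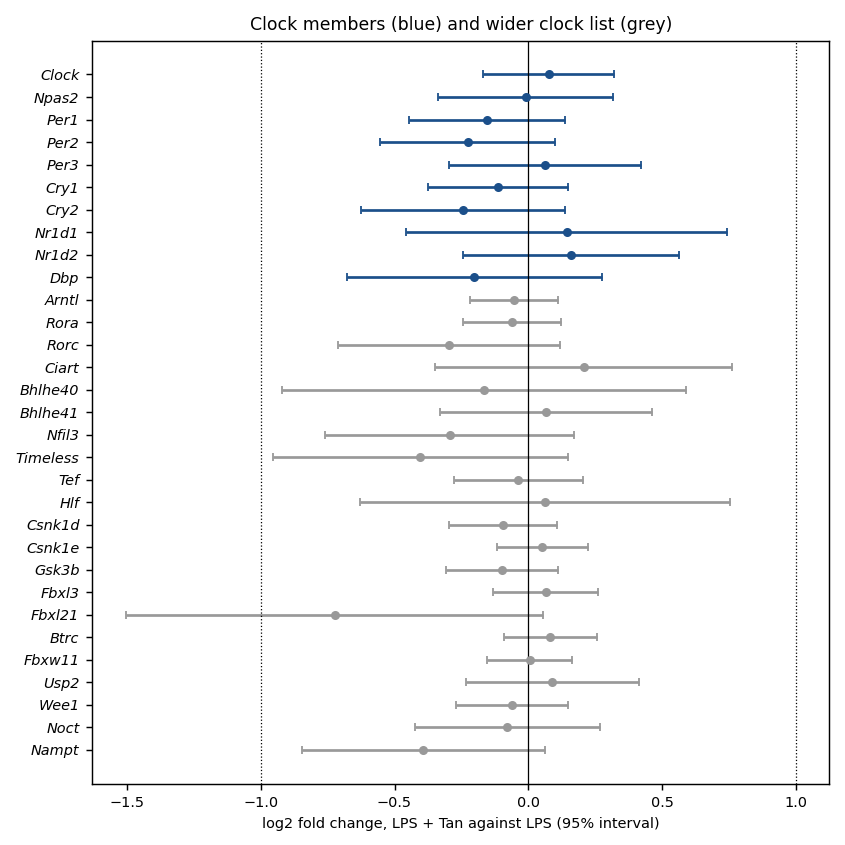
Log2 fold change of LPS + Tan against LPS (x axis) with its 95% interval for the 10 clock genes (blue) and the 21 tested genes of a wider clock list (grey); dotted lines mark a log2 fold change of 1 in either direction. Every interval holds 0, and that of Fbxl21, with few counts, is the widest.

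Levels between genes were compared per length, as mean FPKM over the 8 samples. Per1 (14.0), Cry1 (12.6), Cry2 (10.9) and Clock (10.6) came first, followed by Nr1d2 (5.12), Per2 (3.76), Npas2 (3.22) and Nr1d1 (2.62), and Per3 (0.783) and Dbp (0.683) came last. Neighbours in that order overlapped in range except at the step from Clock to Nr1d2 and at that from Nr1d1 to Per3. The order therefore forms 3 tiers, within which the ranges of adjacent genes overlapped. It depends on the gene lengths behind the FPKM, which were 10130 bases for Clock, 8573 for Per1 and 2765 for Nr1d1. Clock exceeded its paralog Npas2 in 8 of 8 samples, with an FPKM ratio of 3.23 ± 0.382 with LPS and 3.48 ± 0.874 with LPS + Tan (SD, n = 4 each). Nr1d2 exceeded Nr1d1 in 8 of 8 samples, at 2.04 ± 0.444 and 1.99 ± 0.158. Cry1 exceeded Cry2 in only 5 of 8 samples, at 1.13 ± 0.294 and 1.28 ± 0.344.

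A few pairs of members were correlated from sample to sample, 1 of them negatively. Of the 45 pairs, compared on log2 CPM over 8 samples by two-sided exact permutation of Pearson's r, 25 had r above 0 and 20 below 0, and 3 had a Benjamini-Hochberg adjusted p below 0.05. These 3 had an absolute r of at least 0.870, as did 1.18% of all pairs of the 15706 tested genes in the same libraries. Nr1d1 and Nr1d2 had r = 0.909 (exact p = 0.000471, adjusted 0.0212) and ranked the 8 samples identically, with Spearman's rho of 1.0 (exact p = 4.96e-05, adjusted 0.00223). Without LPS 1 and LPS + Tan 2, the samples farthest from the median of Nr1d1, r was 0.984, and on deviations from the group means it was 0.906. Cry1, a known target of REV-ERB repression, ran opposite to Nr1d1, with r = -0.870 (exact p = 0.00126, adjusted 0.0285) and rho = -0.952 (exact p = 0.00114, adjusted 0.0171). This r was -0.712 without LPS 1 and LPS + Tan 1, the samples farthest from the median of Cry1, and -0.869 on deviations from the group means. Cry1 and Nr1d2 had the same rho of -0.952 (exact p = 0.00114, adjusted 0.0171), but r = -0.667 (exact p = 0.120, adjusted 0.561). Npas2, also named above as a target, had r = -0.480 with Nr1d1 (exact p = 0.232, adjusted 0.651). With Nr1d2 it had r = -0.683 (exact p = 0.0624, adjusted 0.459). Without LPS 3 and LPS + Tan 2, the samples farthest from the median of Npas2, these were -0.0095 and 0.037. Arntl was not among the pairs, and repression by REV-ERB was not tested.

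Per1 and Cry2 moved together over the samples, with r = 0.915 (exact p = 0.00268, adjusted 0.0402) and rho = 0.929 (exact p = 0.00223, adjusted 0.0251). Their r was 0.820 without LPS + Tan 1 and 4, the samples farthest from the median of Per1, and 0.893 on deviations from the group means, where the adjusted p was above 0.05. No other pair of PER and CRY genes had an adjusted p below 0.05. The r of those pairs ran from -0.340 for Per3 with Cry2 to 0.587 for Per2 with Cry1. With each sample left out in turn, with other scalings and on deviations from the group means, r kept its sign and lay between 0.901 and 0.985 for Nr1d1 with Nr1d2, between -0.891 and -0.803 for Cry1 with Nr1d1 and between 0.885 and 0.992 for Per1 with Cry2. Of these 11 alternatives, the adjusted p stayed below 0.05 in 9 for Nr1d1 with Nr1d2, in 3 for Cry1 with Nr1d1 and in 2 for Per1 with Cry2. With all 8 samples Per1 with Cry2 had an adjusted p of 0.0714 on deviations from the group means, 0.0856 with total counts and 0.0876 with FPKM (exact permutation). Cry1 with Nr1d1 had an adjusted p of 0.0856 with total counts, 0.135 with FPKM and 0.261 without LPS 1 (exact permutation). Nr1d1 with Nr1d2 had its highest adjusted p, 0.114, without LPS + Tan 1 (exact permutation). The points share 8 libraries and their scaling.

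**Figure D3:**
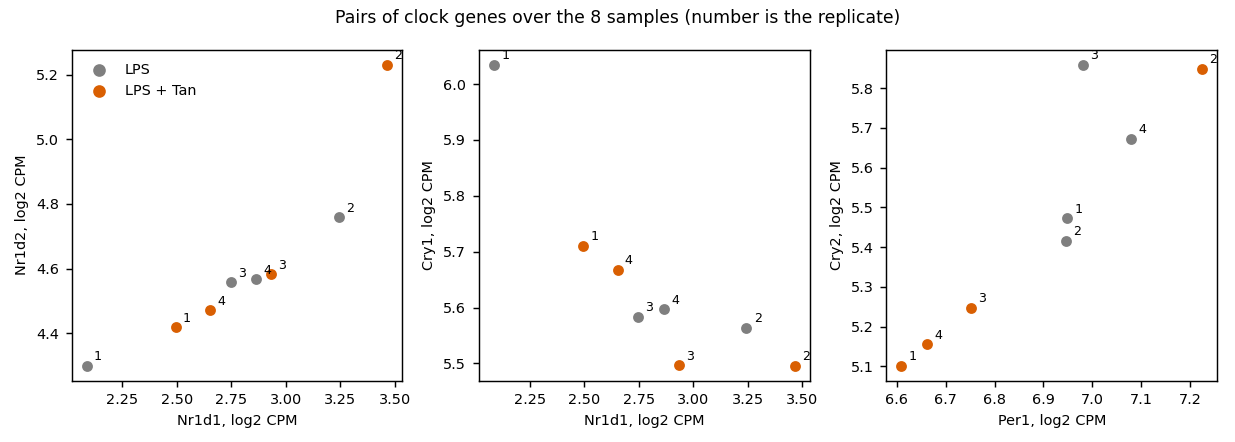
Log2 CPM of Nr1d2 against Nr1d1, Cry1 against Nr1d1 and Cry2 against Per1 in the 4 LPS (grey) and 4 LPS + Tan (orange) samples, numbered by replicate. Nr1d1 and Nr1d2 order the samples identically from LPS 1 to LPS + Tan 2, and Cry1 is highest in LPS 1, where Nr1d1 is lowest, and lowest in LPS + Tan 2, where Nr1d1 is highest. For Cry1, LPS + Tan 2 and LPS + Tan 3 are nearly tied, at 5.496 and 5.497.

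Single samples moved several of these values. LPS + Tan 2 was the highest of the 8 samples for Per1, Nr1d1 and Nr1d2 and the lowest for Npas2 and Cry1. For Cry1 it was nearly tied with LPS + Tan 3, at 45.1 CPM in both. LPS 1 was the opposite of LPS + Tan 2 in part, the highest for Per2, Cry1 and Dbp and the lowest for Nr1d1 and Nr1d2. Without LPS + Tan 2, the log2 fold change was -0.31 for Per1 (SE 0.080, adjusted p = 0.267 by edgeR) and -0.45 for Cry2 (SE 0.12, adjusted p = 0.267 by edgeR). Leaving out that sample raised the number of genes with an unadjusted p below 0.05 from 804 to 1626, or 10.2% of all tested genes in either direction and 5.06% lower in LPS + Tan. Per1 and Cry2 were the 2 of 10 members among them, and in the same 2 of 10 the other LPS + Tan samples lay below every LPS sample, against 4.50% of all tested genes. This non-overlap count was added after the values had been seen, and removing the sample that was highest for Per1 and second highest for Cry2 lowers the LPS + Tan mean of both by construction. Without LPS replicate 2, Per2 was lower in LPS + Tan at -0.35 (adjusted p = 0.998 by edgeR), and it was the 1 of 10 members with an unadjusted p below 0.05 and a lower level, against 1.91% of all tested genes in that direction and 4.13% in either. LPS 2 was the lowest of the 8 for Per2, so that leaving it out widens this difference by construction. Without LPS 1, its highest sample, Per2 was at -0.10. Without LPS + Tan replicate 4, Clock was higher at 0.17 (adjusted p = 0.488 by edgeR), the 1 of 10 members with an unadjusted p below 0.05 and a higher level, against 4.78% of all tested genes in that direction and 9.34% in either, so that the members' share was near the background. The same holds for Clock, for which LPS + Tan 4 was the lowest of the 8. Without LPS + Tan 1, its highest sample, Clock was at 0.00054. Per1 was at -0.09 without LPS + Tan 1, and Cry2 at -0.15 without LPS 3.

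**Figure D4:**
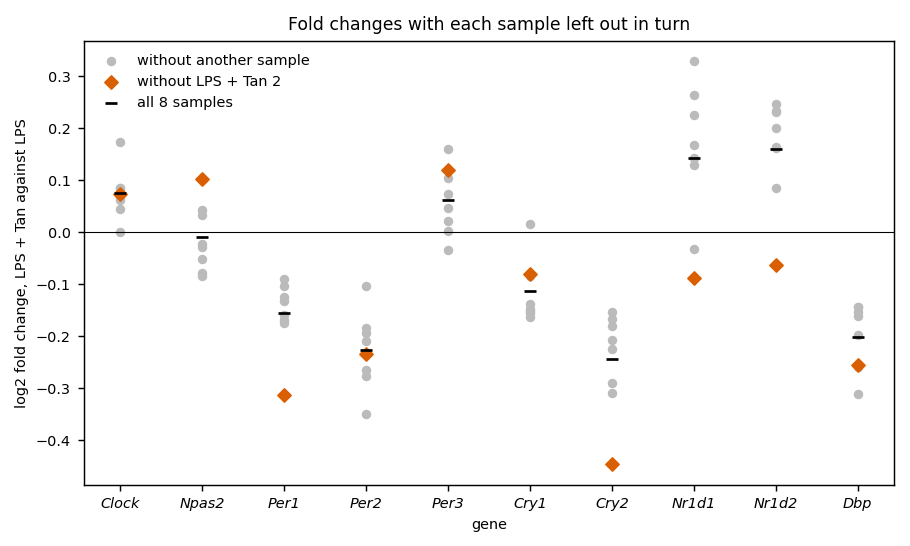
Log2 fold change of LPS + Tan against LPS (y axis) for each clock gene with all 8 samples (dash), without LPS + Tan 2 (diamond) and without each other sample in turn (grey points). Per1 and Cry2 are most negative without LPS + Tan 2, at -0.31 and -0.45, and Nr1d1 and Nr1d2 are below 0 there.

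LPS + Tan 2 was also the highest sample for 7 of the 21 tested genes of a wider clock list, the repressors Bhlhe40, Nfil3, Ciart and Bhlhe41 with Csnk1d, Usp2 and Fbxw11, and for Fkbp5, Sgk1 and Klf9, which are 3 of the 6 known glucocorticoid receptor targets examined. In the other 3 it ranked lower, at 5, 6 and 7 of 8 from the lowest for Tsc22d3, Dusp1 and Zbtb16. The share of all tested genes that were highest in LPS + Tan 2 is not given here, so that these counts cannot tell whether such genes stand out. Bhlhe40 was at 90.6, 77.3, 129 and 70.0 CPM with LPS and at 52.4, 153, 55.1 and 66.4 CPM with LPS + Tan. Without LPS + Tan 2 its log2 fold change was -0.66 (adjusted p = 0.310 by edgeR), and that of Nfil3 was -0.54 (adjusted p = 0.284 by edgeR), the 2 of 21 tested genes of the wider clock list that then had an unadjusted p below 0.05, a share near the 10.2% of all tested genes. Of these 6 targets, 0 passed an unadjusted p of 0.05 with all samples, 5 had a log2 fold change below 0, and their median was -0.18. Their summed CPM was 2466 to 2847 with LPS and 1907 to 2907 with LPS + Tan, with the highest sum in LPS + Tan 2. Without that sample, which lowers the LPS + Tan mean of the targets that peak in it by construction, 3 of the 6 (Fkbp5, Dusp1 and Klf9) had an unadjusted p below 0.05 and a lower level in LPS + Tan, against 5.06% of all tested genes. Their adjusted p was 0.214, 0.331 and 0.399 by edgeR, and Sgk1 went the other way, with a log2 fold change of 0.11. In 2 of the 6 the other LPS + Tan samples lay below every LPS sample, against 4.50% of all tested genes. The part of glucocorticoid targets or of cell makeup in the values of Per1 and Cry2 was not tested.

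The wider clock list of 23 genes, with other activators, repressors, output factors, kinases, ubiquitin ligases and clock-controlled outputs, gave the same count as the members. Of the 21 that were tested 0 passed an unadjusted p of 0.05 (against 5.12% of all tested genes), 8 had a log2 fold change above 0 and 13 below 0, and their median was -0.061. Arntl, the partner of Clock, was at 52.9 ± 3.12 CPM with LPS and 51.0 ± 2.25 CPM with LPS + Tan (SD, n = 4 each), with a log2 fold change of -0.05 (SE 0.074). Of the D-box factors related to Dbp, Tef had a log2 fold change of -0.04 (SE 0.11) and Hlf one of 0.06 (SE 0.31). Among the genes listed with the repressors, Timeless, whose role as a repressor was not examined, had -0.40 (SE 0.25). Ciart had 0.21 (SE 0.25), Bhlhe41 0.07 (SE 0.18), Nfil3 -0.29 (SE 0.21) and Bhlhe40 -0.17 (SE 0.34). Arntl2 and Rorb did not pass the filter on low counts.

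**Figure D5:**
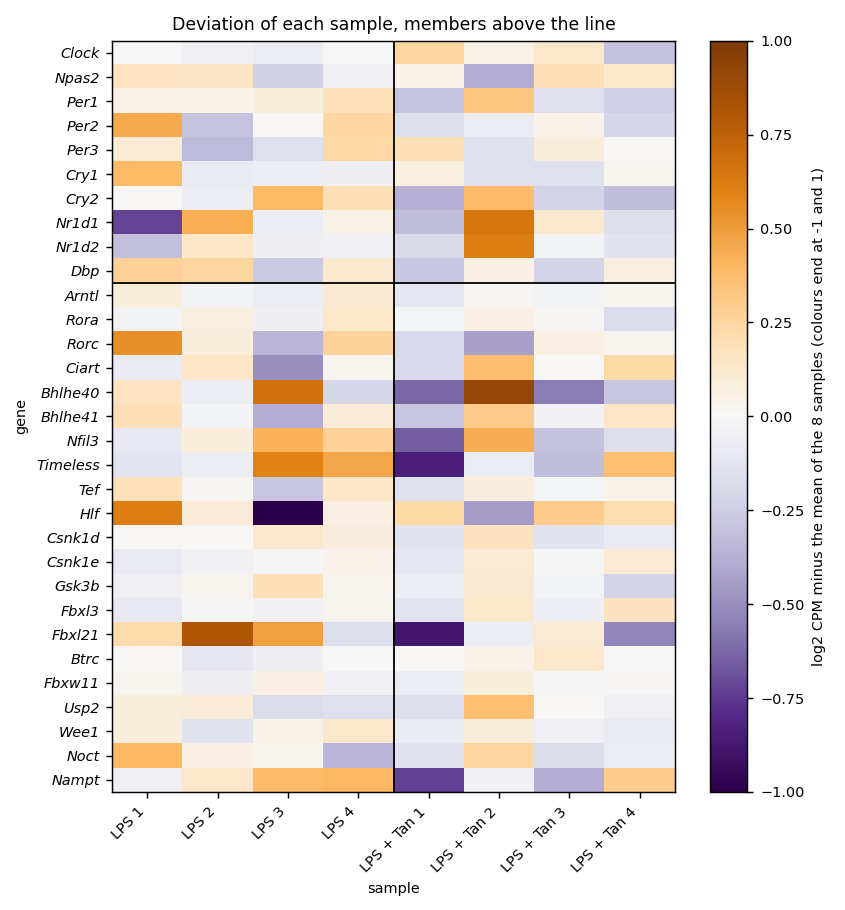
Log2 CPM of each sample minus the mean of the 8 samples (colour, orange above and purple below) for the 10 clock genes (above the line) and the 21 tested genes of the wider list. LPS 1 and LPS + Tan 2 are opposite in Nr1d1, Nr1d2 and Cry1, and no gene has all LPS samples on one side of all LPS + Tan samples.

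The genes whose log2 CPM followed a member most closely over the 8 samples are given as a description, out of 15705 other genes. For Dbp they were Ccl6 (r = 0.963), Plpp2 (0.961), Ckmt1 (0.958), Cracdl (0.949) and Hint3 (0.938), and Tef, its relative, had r = 0.815 at rank 88, and Hlf, another relative, had r = 0.409 at rank 2614. For Npas2 they were Mrpl42 (r = 0.974), Tmem126b (0.973), Tomm34 (0.966), Ttc21b (0.965) and Prpsap2 (0.963).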

How the data were processed

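RNA-seq of lung from 4 LPS and 4 LPS + Tan samples was analysed. The authors deposited raw read counts per gene and FPKM values for 24584 genes. The FPKM deposited by the authors equal the count divided by gene length and total count, since 1 length per gene explained all samples within 0.01% in 17256 of 17256 genes counted in every sample. The submitters' processing notes name GRCm38 and mm10, while for the aligner, counter and strand setting the sources used here give nothing. The labels and the study's methods name different extraction and library kits. All columns had a sample (0 without one). Total counts were 38895654 to 39931970, so that the spread between samples rather than depth limits all but low genes such as Dbp.

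The test on counts was that of edgeR 4.0.16 (R 4.3.3, with filterByExpr, TMM, quasi-likelihood, no covariate). The SE is the size of the log2 fold change divided by the square root of F. Log2 CPM used a prior count of 2. Member pairs were tested by exact permutation in Python 3.11.15. No samples were repeats of one library, since counts within groups differed by 9.60 to 36.9 times the sampling noise. In simulated data for this comparison, 69.5% of genes changed 2-fold (15535 genes tested) and 86.5% of genes changed 3-fold (15516 genes tested) were recovered.

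Alternatives were DESeq2 1.42.0, RLE, upper-quartile and no scaling, no filter, 1 CPM in 4 samples, the likelihood ratio test, voom and FPKM in limma 3.58.1 with pseudocounts of 1 and 0.1, a replicate block and each sample left out. The members were matched by symbol alone, but the members and lists were chosen with earlier results of these data known. The genes named are the 10 members, Arntl, Ciart, Tef, Hlf, Nfil3, Bhlhe40, Bhlhe41, any other gene of the wider list with an unadjusted p below 0.05, and the 5 genes most correlated with Dbp and with Npas2. Other genes were named after their values were seen. Gene names of 23807 rows matched RefSeq symbols, and promoters came from RefSeq on GRCm38.p6.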

Additional observations from a re-analysis of the deposited data

Results flagged for a closer look

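Cry1 in the LPS group had 1 sample far from the others. LPS 1 was at 65.5 CPM and the other 3 between 47.3 and 48.3 CPM, so that its gap to the nearest sample took a share of 0.931 of the group's range on log2 CPM, above the critical value of Dixon's test at 95% for 4 samples. Of the 20 groups of samples examined (10 genes in both groups) 1 passed, which is about the number that chance gives. Without LPS 1 the log2 fold change of Cry1 was 0.02 in place of -0.11.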

How the results depend on the processing

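No member met the thresholds for differentially expressed genes or had an adjusted p below 0.05 under any of 20 alternatives. Of 200 combinations of a member and an alternative, 183 kept direction and side of an unadjusted p of 0.05, 13 changed direction and 4 passed 0.05. Npas2, near 0 throughout, became 0.00074 with upper-quartile scaling, 0.0322 with total counts only, 0.0200 with log2(FPKM + 1), also over all genes, and 0.0238 with log2(FPKM + 0.1). With each sample left out, log2 fold changes ran from -0.0843 to 0.103 for Npas2, -0.163 to 0.0151 for Cry1, -0.0883 to 0.330 for Nr1d1, -0.0624 to 0.246 for Nr1d2, -0.0346 to 0.161 for Per3, 0.00054 to 0.174 for Clock, -0.313 to -0.0898 for Per1, -0.349 to -0.103 for Per2, -0.446 to -0.153 for Cry2 and -0.312 to -0.143 for Dbp. Members with an unadjusted p below 0.05 then numbered 0 to 2, genes of the wider list 0 to 2 and correlated pairs 0 to 3. No pair passed without LPS + Tan 1, and none without LPS + Tan 4.

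The wider list had 1 gene past 0.05 with no count filter and 1 with FPKM over all genes (Arntl2 in both), and 1 with the likelihood ratio test (Fbxl21). Pairs numbered 1 with total counts only and 1 with log2(FPKM + 1), in both cases Nr1d1 with Nr1d2. Over all genes an adjusted p below 0.05 was reached by 35 genes with DESeq2, 23 with the likelihood ratio test, 2 with FPKM over all genes and 1 without LPS + Tan 4. No pairing by replicate number was seen, since same-numbered samples correlated at 0.12, -0.03, -0.15 and 0.02 on deviations from the group means. With 4 samples per group this cannot exclude a weaker pairing. With the replicate block 0 members and 2 genes of the wider list (Nampt and Timeless) passed 0.05. Leaving out 1 of 4 samples lowers the number of arrangements for pairs, and among the 10 members counts limit Dbp most.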
